A study of Mus musculus with 4 samples.

Results

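The insulin-like growth factor genes were followed through 4 single-cell RNA sequencing libraries of mouse molar tooth organs. The set was fixed by gene symbol and held 10 of the 32285 genes counted: the ligands Igf1 and Igf2, the receptors Igf1r and Igf2r, the binding proteins Igfbp2, Igfbp3, Igfbp4, Igfbp5 and Igfbp6, and H19, the non-coding RNA gene next to Igf2. Each symbol matched 1 row of the count tables, and all 10 genes had at least 20 UMIs in every comparison of mesenchyme with epithelium, of stages within each of them and of jaws within mesenchyme.

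The libraries came from wild-type mice of the C57BL/6J strain, named WTB6 in the labels, and no library carried an allele or a treatment. Maxillary and mandibular molars were each taken at E15.5 and P1. The embryonic age is E15.5 in the protocol and E15 in the sample titles, and the protocol gives the postnatal pups as P0/P1. Each library pooled 6 tooth organs and there was 1 library per stage and jaw, so no stage and jaw had a replicate and no test between conditions was made. All intervals cover counting error at 95% and say nothing about differences between animals, and "past 2-fold" is a call by size alone.

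Cells were barcodes with at least 1000 UMIs, a UMI being the molecular tag by which copies of 1 captured RNA are counted once. They numbered 10073 in the E15.5 maxillary library, 6911 in the E15.5 mandibular library, 17040 in the P1 maxillary library and 10120 in the P1 mandibular library, with 109134519, 85932640, 127598083 and 115121025 UMIs in the same order. The P1 libraries shared 7131 barcodes, against 28 to 70 for any other pair of libraries. In the shared barcodes the P1 maxillary library had a median of 12088 UMIs and the P1 mandibular library 2870, and the log2 ratio between them had its 5th percentile at 2.0 and its 95th at 2.18. The shared barcodes were kept in the P1 maxillary library, where they made up 41.8% of the cells and 75.6% of the UMIs, and 6690 of them were dropped from the P1 mandibular library. Whether they are the same cells read in both libraries, and which library they belong to, was not tested, and each P1 maxillary value and P1 jaw comparison depends on the choice made here. In the P1 maxillary library the shared barcodes held 96.7% of the dental papilla-like cells and 0.126% of the neuron-like cells, and values without them are given where they are named as such. Of the odontoblast- or osteoblast-like cells of that library 8 were not shared, too few for a level of their own. Classes of cells are called by their marker genes with the ending "-like", and a level, in CPM, is the number of UMIs of a gene per 1000000 UMIs of the class. Orders of classes cover the named classes, so mesenchyme-like and epithelium-like cells of no named subclass have no place in them.

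Igf1 and Igf2 encode secreted growth factors that act through the tyrosine kinase receptor made from Igf1r. Igf2r encodes a receptor that binds IGF2 and carries it to the lysosome, and the IGFBP proteins bind both ligands outside the cell and set how much of them reaches the receptor. Igf2 and H19 are neighbours in an imprinted region, where Igf2 is transcribed from the paternal copy and H19 from the maternal copy, and both are known as fetal growth genes that are active in mesoderm-derived and neural crest-derived tissue.

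Igf2 and H19 each carry a microRNA gene, and the mature sequences are shown because they are the known small RNA products of these transcripts. They come from RefSeq (GRCm38.p6), and the capitals mark bases 2 to 8, the seed that pairs with targets.
mmu-miR-675-5p: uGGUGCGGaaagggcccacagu
mmu-miR-675-3p: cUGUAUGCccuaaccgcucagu
mmu-miR-483-5p: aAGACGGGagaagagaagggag
mmu-miR-483-3p: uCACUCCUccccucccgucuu
The miR-675 arms lie in an exon of H19, at chr7:142577112-142577133 for miR-675-5p and chr7:142577078-142577099 for miR-675-3p, both on the minus strand. The miR-483 arms lie inside the Igf2 gene and outside its exons, at chr7:142654968-142654989 for miR-483-5p and chr7:142654932-142654952 for miR-483-3p, also on the minus strand. The 4 seeds differ from each other, and each is held by 1 mature sequence of the table. The libraries captured polyadenylated RNA, so the microRNAs themselves were not measured.

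In the annotation of the build used (mm10, GRCm38), H19 spans chr7:142575529-142578143 and Igf2 chr7:142650766-142666816, both on the minus strand with 72.6 kb between them. Igfbp2, at chr1:72824503-72852474 on the plus strand, and Igfbp5, at chr1:72857932-72874884 on the minus strand, are neighbours with their 3′ ends 5.46 kb apart. Their promoters are shown because these neighbours changed in opposite directions between stages in connective tissue-like cells, as given further on. Each sequence covers 250 bases before the RefSeq start, read along the gene's strand, with GGGCGG in capitals for Igfbp2 and TATTTAA for Igfbp5.
Igfbp2, chr1:72824230-72824479: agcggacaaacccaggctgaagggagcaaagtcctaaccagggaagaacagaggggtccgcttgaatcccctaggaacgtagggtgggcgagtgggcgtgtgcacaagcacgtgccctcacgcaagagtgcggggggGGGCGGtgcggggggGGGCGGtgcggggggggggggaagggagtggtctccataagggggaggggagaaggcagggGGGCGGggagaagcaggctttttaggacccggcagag
Igfbp5, chr1:72874866-72875115: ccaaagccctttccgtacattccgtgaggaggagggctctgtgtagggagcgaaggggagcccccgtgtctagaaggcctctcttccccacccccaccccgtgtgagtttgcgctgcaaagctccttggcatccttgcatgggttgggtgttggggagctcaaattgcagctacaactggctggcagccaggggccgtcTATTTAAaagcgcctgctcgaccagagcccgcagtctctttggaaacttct
GGGCGG, the core of the GC box, was searched on both strands and began 113, 98 and 37 bases before the RefSeq start of Igfbp2 shown. A second RefSeq start of Igfbp2, whose 250 bases lie at chr1:72825137-72825386, held none. It occurred in 32.7% of all 32851 promoter windows of that length. The motif TATTTAA, which resembles the TATA box of other promoters, began 51 bases before the start of Igfbp5 and occurred in 4.18% of the windows. The Igfbp2 windows held no TATTTAA and the Igfbp5 window no GGGCGG. These matches describe the windows and were not tied to any factor. RefSeq promoters were matched for 9 of the 10 genes.

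**Figure D1:**
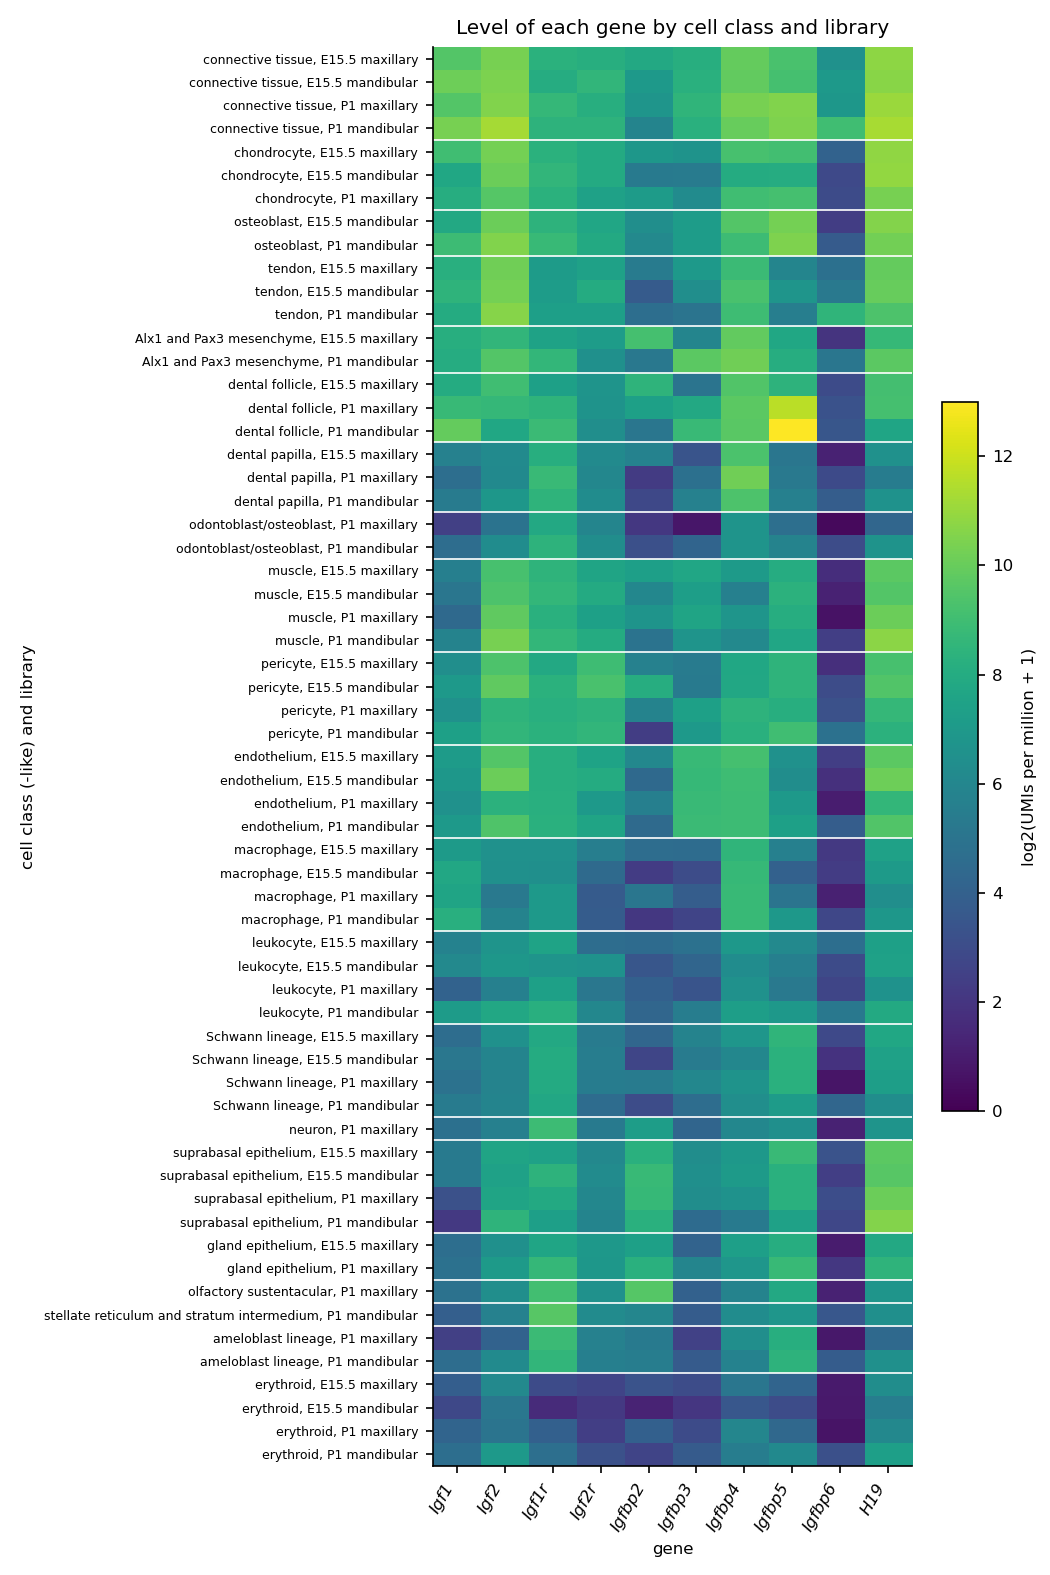
Heat map of log2(CPM + 1), by colour, for the 10 genes (columns) in each class of at least 50 cells and each library (rows, grouped by class). Igf1, Igf2 and H19 are high in connective tissue-like cells and low in dental papilla-like and erythroid-like cells, Igfbp5 is highest at P1 in the class named dental follicle-like, and Igf1r is measured in almost every class except erythroid-like cells.

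Igf1, the ligand that in postnatal life mediates much of the action of growth hormone, was highest in connective tissue-like cells in all 4 libraries. These cells were marked by Dpt, Mfap5 and Clec3b, genes of loose fibroblasts, and numbered 1743, 2101, 1032 and 1557 in the E15.5 maxillary, E15.5 mandibular, P1 maxillary and P1 mandibular libraries, the order used from here on. Igf1 stood at 742 (729 to 754), 1114 (1103 to 1126), 732 (713 to 752) and 1286 (1269 to 1303) CPM there. The class next in order was chondrocyte-like at E15.5 in the maxilla (512), tendon-like at E15.5 in the mandible (351) and dental follicle-like at P1 (438 and 979), and none of these intervals overlapped that of connective tissue-like cells. In the P1 maxillary barcodes that were not shared, connective tissue-like cells had 926 (878 to 977), chondrocyte-like cells 285 (266 to 305) and follicle-like cells 281 (258 to 304). Dental papilla-like cells, the tissue that forms pulp and odontoblasts, had 50.8 (35.9 to 69.7), 25.3 (23.8 to 26.9) and 41.5 (39.1 to 44.0) in the E15.5 maxillary, P1 maxillary and P1 mandibular libraries. With each cell thinned to 2000 UMIs, Igf1 was seen in 56.5%, 76.6%, 53.7% and 79.2% of connective tissue-like cells and in 2.99%, 4.15% and 5.85% of papilla-like cells. Erythroid-like cells, a type that should lack the gene and so was used as the free-RNA background, showed it in 2.38%, 1.49%, 1.78% and 1.64% after the same thinning, with median depths of 5965, 7388, 1933 and 3235 UMIs. At P1 the papilla shares lay above that background, with intervals of 3.48 to 4.90 and 4.85 to 6.99 against 0.855 to 3.24 and 0.751 to 3.08. At E15.5 the papilla share, with an interval of 0.364 to 10.4, overlapped it. The connective tissue shares lay far above it.

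Macrophage-like cells had Igf1 at 134 (123 to 145), 224 (206 to 244), 194 (176 to 213) and 295 (272 to 319) CPM. This class was the only one outside the mesenchyme to take a place among the 4 highest for Igf1, which it did in 3 of the 4 libraries. Its Igf1 level was higher at P1 than at E15.5 in both jaws, with log2 ratios of 0.54 (0.36 to 0.72) and 0.39 (0.22 to 0.56), neither past 2-fold. The mandibular ratio was -0.12 with the shared barcodes kept in that library and -0.03 with a minimum of 2000 UMIs, so its direction rests on those choices. Ameloblast-like cells, the enamel-forming epithelium, had 4.54 (3.34 to 6.04) in the P1 maxillary and 24.2 (21.4 to 27.2) in the P1 mandibular library, against 17.3 and 25.3 in erythroid-like cells of the same libraries. Thinned, Igf1 was seen in 0.530% (0.145 to 1.35) and 2.45% (1.52 to 3.73) of ameloblast-like cells of these libraries. Erythroid-like cells had 1.78% (0.855 to 3.24) and 1.64% (0.751 to 3.08), so the intervals overlapped in both jaws. Erythroid-like cells were also shallower, and their P1 mandibular clusters ranged from 0 to 51.3 CPM. Igf1 in ameloblast-like cells was thus not set apart from the free-RNA background, which erythroid-like cells give only roughly.

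Igf2, the main fetal growth factor of the family, was also highest in connective tissue-like cells in each library, at 1281 (1264 to 1297), 1395 (1382 to 1408), 1473 (1446 to 1501) and 2459 (2436 to 2482) CPM. The P1 maxillary value without the shared barcodes was 987 (937 to 1039), still the highest of that library. At E15.5 the skeletal and tendon classes came close to that level, and at P1 they were further below it. Chondrocyte-like cells had 1235, 1084 and 749.8 in the E15.5 maxillary, E15.5 mandibular and P1 maxillary libraries, and the first of these was the closest to the connective tissue value, with intervals of 1207 to 1263 and 1264 to 1297. Tendon-like cells had 1155, 1250 and 1594 at E15.5 in the maxilla, E15.5 in the mandible and P1 in the mandible, and mandibular osteoblast-like cells had 1079 at E15.5 and 1495 at P1. Muscle-like cells had 593, 649, 907 and 1294, so the P1 values exceeded the E15.5 values in both jaws. In the maxilla the class was 1 cluster at E15.5, at 593, and 2 clusters at P1, at 612 and 1911. Its mandibular clusters ranged from 523 to 1831 at E15.5 and from 1023 to 2853 at P1. Endothelium-like cells had 726, 1081, 325 and 686, with the P1 values below the E15.5 values.

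Among dental classes Igf2 was higher in the follicle than in the papilla or the ameloblast lineage. Follicle-like cells had 513 (499.9 to 526), 403 (386 to 421) and 210.2 (181 to 243) CPM in the E15.5 maxillary, P1 maxillary and P1 mandibular libraries. Papilla-like cells had 73.5 (55.4 to 95.6), 72.2 (69.7 to 74.9) and 115 (111 to 119) CPM in the same libraries, and ameloblast-like cells had 16.2 (13.9 to 18.9) and 72.4 (67.6 to 77.5) at P1. Erythroid-like cells had 67.4, 34.5, 31.1 and 126, and their clusters in the P1 mandibular library ranged from 17.5 to 267. In CPM the P1 mandibular papilla-like value was not above the erythroid-like value of its library, and the E15.5 maxillary one overlapped it. Thinned, Igf2 was seen in 11.9%, 12.2% (11.0 to 13.3) and 17.8% (16.1 to 19.6) of papilla-like cells and in 11.0%, 5.51% (3.77 to 7.72) and 12.4% (9.73 to 15.4) of erythroid-like cells of those libraries. At P1 the papilla share was thus the higher one in both jaws, and the thinned share and the level differ in direction in the mandible.

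H19 followed Igf2 in most classes. It stood at 1766 (1747 to 1786), 1640 (1626 to 1654), 2129 (2096 to 2162) and 2535 (2511 to 2558) CPM in connective tissue-like cells, and was highest in chondrocyte-like cells at E15.5, with 1812 (1778 to 1846) and 1900 (1860 to 1940), of which the maxillary interval overlapped that of connective tissue-like cells. The P1 maxillary connective tissue-like level was 1321 (1264 to 1381) without the shared barcodes, with muscle-like cells next at 1278 (1185 to 1375), so those classes overlapped. The number of H19 UMIs per Igf2 UMI was 1.38, 1.18, 1.44 and 1.03 in connective tissue-like cells and 1.16, 1.03, 1.19 and 1.04 in endothelium-like cells. Counting intervals on these ratios are narrow, and the classes lay close to each other on this measure.

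Suprabasal epithelium-like cells stood apart in the ratio of H19 to Igf2. This class, marked by keratins and other genes of the upper layers of oral epithelium, had H19 at 859.5, 783, 1069 and 1550 CPM and Igf2 at 190.2, 173, 195 and 346. The ratio was 4.52 (4.29 to 4.77), 4.53 (4.10 to 5.02), 5.49 (4.99 to 6.04) and 4.48 (3.95 to 5.10), and no interval overlapped that of connective tissue-like, endothelium-like or muscle-like cells. Several other classes outside the mesenchyme also lay above connective tissue-like cells of their library, though below the suprabasal class. The remaining epithelium-like cells had 2.62 (2.39 to 2.88) at E15.5 in the maxilla and 1.95 (1.79 to 2.13) and 1.69 (1.57 to 1.81) at P1, and gland epithelium-like cells had 2.53 and 2.67 in the maxillary libraries. Schwann lineage-like cells had 2.25, 3.03, 2.78 and 1.43, the last with an interval that reached the connective tissue value, and macrophage-like cells had 1.82, 1.52, 2.29 and 2.09. Among the lowest ratios, tendon-like cells had ratios of 0.844, 0.799 and 0.414, and papilla-like cells at P1 had 0.586 and 0.862. Erythroid-like cells had 1.23, 1.28, 2.09 and 1.25. The suprabasal class held 499, 148, 308 and 59 cells, and 1 cluster in each library.

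**Figure D2:**
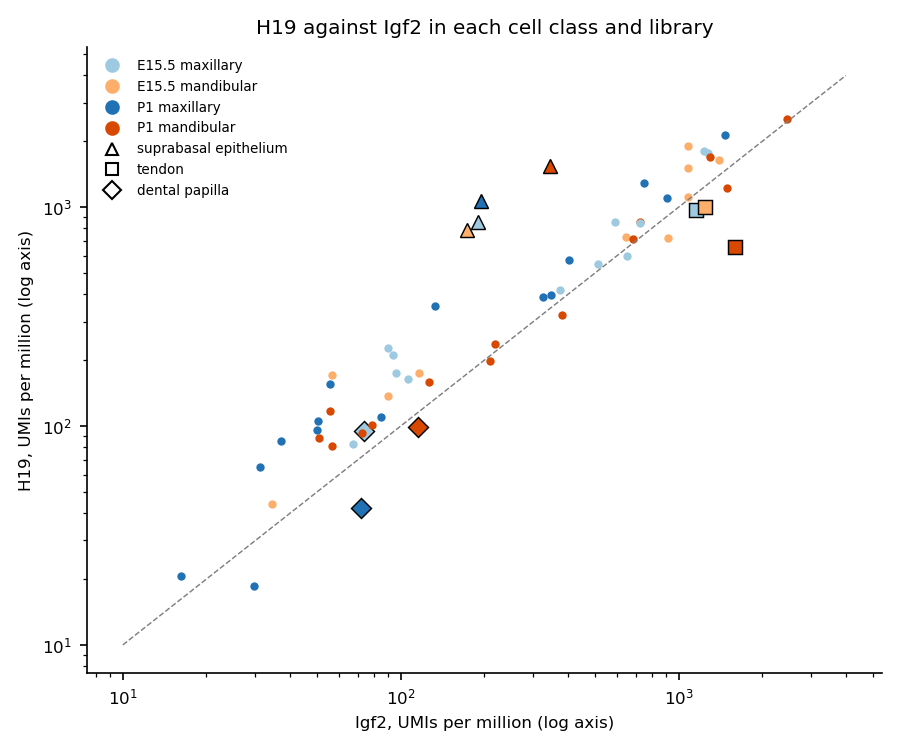
H19 against Igf2, both in CPM on log axes, in each cell class of at least 50 cells and each library, with libraries by colour and the dashed line at equal counts. The triangles of suprabasal epithelium-like cells lie above the line at ratios of 4.48 to 5.49, and the squares of tendon-like cells lie below it at 0.414 to 0.844.

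Among thinned cells, those with Igf2 more often had H19 too. In connective tissue-like cells H19 was seen in 90.3%, 91.5%, 93.3% and 95.6% of cells with Igf2 and in 74.2%, 78.2%, 72.6% and 63.2% of the others. In endothelium-like cells the shares were 76.8%, 79.8%, 65.3% and 69.4% against 43.5%, 35.3%, 21.5% and 22.8%. Cells of 1 library share their source and are not replicates, so these shares describe the libraries only.

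Igf1r, the signalling receptor, was measured in almost every class, with erythroid-like cells lowest in each library. The mesenchyme-like compartment had 264 (259.6 to 268), 278 (274 to 283), 383 (379 to 388) and 352 (347 to 356) CPM, and the epithelium-like compartment 233 (226 to 241), 339 (318 to 362), 487 (479 to 495) and 486 (478 to 494). The highest value was in the stellate reticulum- and stratum intermedium-like cells of the P1 mandibular library, 318 cells of the inner enamel organ, with 795 (770.2 to 819.8). Ameloblast-like cells had 470.4 and 378, papilla-like cells 281, 453 and 352, and olfactory sustentacular-like cells, a nasal support cell caught in the P1 maxillary dissection, 529.9. In the P1 maxillary barcodes that were not shared, 107 papilla-like cells had Igf1r at 564 (484 to 653) and 79 ameloblast-like cells at 661 (555 to 782). Macrophage-like cells were low with 95.7, 87.1, 129 and 129, and erythroid-like cells had 6.89, 1.98, 14.8 and 25.9. Among the named classes muscle-like and chondrocyte-like cells led at E15.5 in both jaws, at 355 and 315 in the maxilla, where the 417 epithelium-like cells of no named subclass had 368 (350.3 to 385). The intervals of muscle-like and chondrocyte-like cells did not separate them from each other in the mandible (389.9 against 375).

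The class with the highest Igf1r was low in both ligands. In the P1 mandibular library the stellate reticulum- and stratum intermedium-like cells had 14.4 CPM of Igf1 and 50.7 of Igf2, both below the erythroid-like level, with Igf1r at the top of the 17 classes.

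Igf2r, which removes IGF2 from the cell surface, was highest in pericyte-like cells, the mural cells of small vessels, with 495 (456 to 535), 613 (570.2 to 658), 340.1 (308 to 375) and 375 (332 to 422) CPM. Connective tissue-like cells followed with 279, 373, 279 and 335, and only at P1 in the mandible did the intervals of the leading classes overlap. The epithelium-like compartment had 75.9, 75.4, 62.2 and 60.6, and macrophage-like cells 47.0, 21.4, 12.2 and 12.9. Igf2r, at chr17:12682406-12769664 on the minus strand, is overlapped by the antisense transcript Airn, and whether the counting used strand is not given in the sources used here. Reads of the 2 genes may thus be mixed, and the Igf2r levels are uncertain to that extent.

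Among the binding proteins, Igfbp4 was spread widely over mesenchyme. It stood at 976, 955, 1293 and 1010 CPM in connective tissue-like cells and at 641 (585 to 701), 1143 (1132 to 1153) and 671 (661 to 681) in papilla-like cells. In papilla-like cells Igfbp2, Igfbp3, Igfbp5 and Igfbp6 lay between 1.34 and 53.4 CPM, with Igfbp3 at 26.8 (25.3 to 28.5) and 51.8 (49.1 to 54.6) at P1, above the 6.92 and 12.5 of erythroid-like cells. Thinned, Igfbp4 was seen in 61.2%, 77.1% and 60.3% of papilla-like cells, against 4.29%, 7.10% and 4.36% of erythroid-like cells in the same libraries. The P1 maxillary papilla level rests on the shared barcodes, and the 107 papilla-like cells that were not shared had 652 (566 to 748). Macrophage-like cells had 359.9, 417, 435 and 439.9, and endothelium-like cells 564, 493, 485 and 483, so both varied little between libraries. Odontoblast- or osteoblast-like cells, which in both P1 libraries had Dspp, a dentin matrix gene, at 687 and 1792 (ameloblast-like cells had 722 and 1585), had Igfbp4 at 104 and 105, below the 1143 and 671 of papilla-like cells.

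Igfbp5 was highest at P1 in clusters led by Bmp3 or by Igfbp5 itself with Bmp3, which were put in the dental follicle-like class by its markers. The dental follicle is the sac around the tooth germ that forms the periodontal ligament, cementum and part of the alveolar bone. These cells had 3248 (3198 to 3298) CPM in the P1 maxillary and 8967 (8770 to 9166) in the P1 mandibular library, against 332 (322 to 343) at E15.5 in the maxilla. Among the P1 maxillary barcodes that were not shared, follicle-like cells had 601 (569 to 636) and connective tissue-like cells, with 771 (727 to 817), were highest, so the lead of the follicle in that library rests on the shared barcodes. The follicle-like cells were not the same population at both stages. At E15.5 they were 1 cluster of 1050 cells led by Pappa2. In the P1 maxillary library they were a cluster of 509 cells led by Pappa2, with Igfbp5 at 448, and a cluster of 543 cells led by Igfbp5 itself and Bmp3, with 5171. In the P1 mandibular library they were 103 cells led by Bmp3, with 8967 and with Igfbp5 in 96.7% of thinned cells. The follicle markers Bmp3 and Spon1 were among the 10 leading genes of both Bmp3 clusters, with Tmem100 in the maxilla and Foxf1 in the mandible, but so were the bone genes Ibsp and Runx2, and in the maxilla the tendon gene Tnmd, so the follicle name is uncertain for these clusters. The Pappa2-led clusters thus had 332 and 448 at the 2 stages, and the high level was in the clusters led by Bmp3, which were found at P1. Igfbp5 and the other genes of the set were left out of the genes used for clustering.

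The other classes with much Igfbp5 were osteoblast-like cells, with 1251 and 1457 in the mandible at the 2 stages, and connective tissue-like cells, with 609.5, 576, 1478 and 1458. Papilla-like cells had 33.4, 37.7 and 50.2, and the erythroid-like cells of those libraries 17.5, 20.1 and 71.7. At P1 in the mandible the papilla-like and follicle-like cells stood at 50.2 and 8967.

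Igf1, Igfbp4 and Igfbp5 were found together at P1 in the Bmp3-led clusters. There Igf1 was at 576 in the maxilla and 979 in the mandible, Igfbp4 at 866 and 821, and Igfbp3 at 376 and 451. Finding them together was not particular to these clusters. Connective tissue-like cells of the same libraries had more Igf1, at 732 and 1286, and more Igfbp4, at 1293 and 1010. Their Igfbp5, at 1478 and 1458, was below that of the Bmp3-led clusters. Igf2 was lower in the Bmp3-led clusters than in connective tissue-like cells of the same library, at 371 against 1473 and at 210.2 against 2459.

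**Figure D3:**
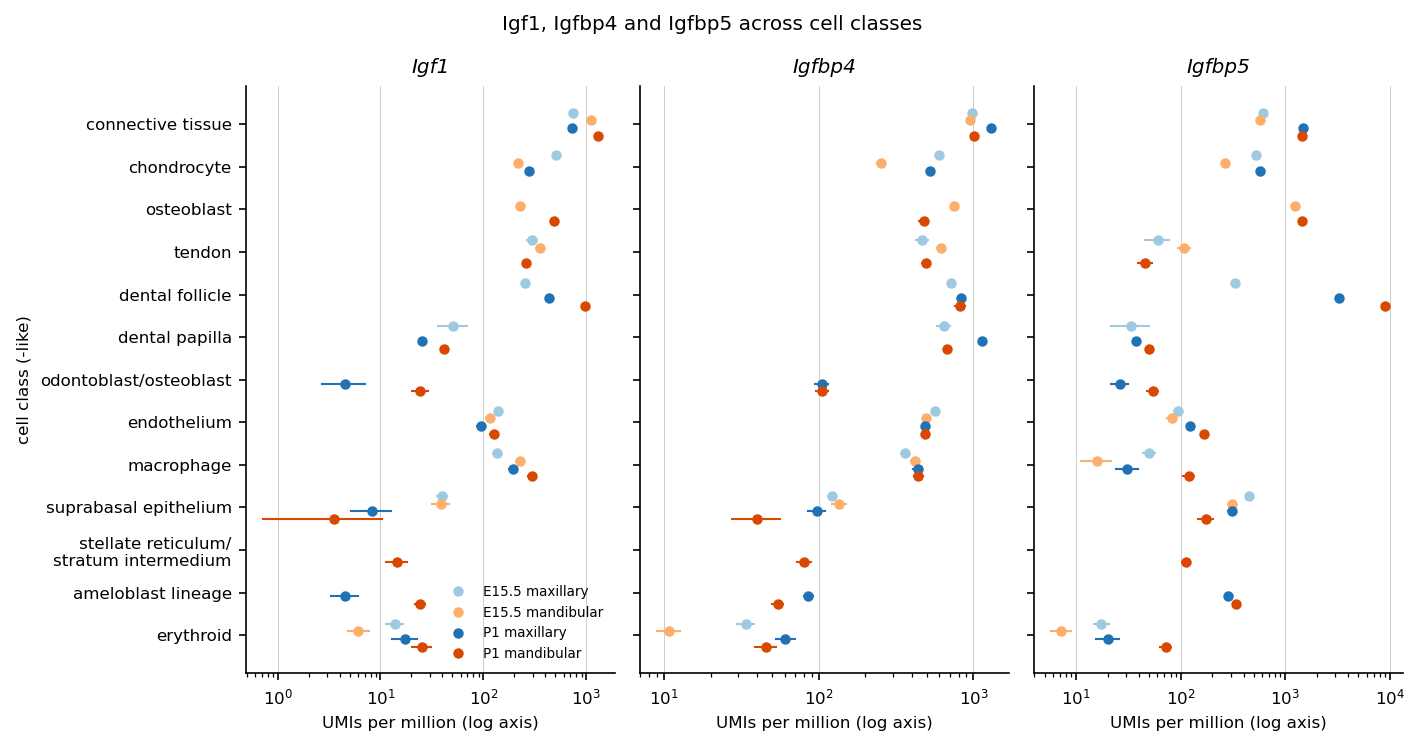
Levels of Igf1, Igfbp4 and Igfbp5 in CPM (log axis) across cell classes, with 1 point per library and 95% Poisson intervals as bars. Papilla-like cells sit low for Igf1 and Igfbp5 and high for Igfbp4, and follicle-like cells at P1 reach 8967 for Igfbp5.

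Igfbp2 was measured in epithelium as well as in mesenchyme. Suprabasal epithelium-like cells had 304, 428, 421 and 305 CPM, and olfactory sustentacular-like cells in the P1 maxillary library had 748 (713 to 785). In the mesenchyme-like compartment as a whole it was highest in the E15.5 maxillary library. That order rests on the shared barcodes, since without them the maxillary log2 ratio of P1 over E15.5 in mesenchyme-like cells was 0.39. In the E15.5 maxillary library the 344 cells marked by Alx1 and Pax3, transcription factors of frontonasal and craniofacial mesenchyme, had 577 (553 to 602). The 120 cells of that class in the P1 mandibular library had 36.3 (26.9 to 48.0). Papilla-like cells had 53.4, 3.87 and 5.99, and the P1 values did not exceed the 15.1 and 5.28 of erythroid-like cells by more than counting error allows.

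Igfbp3 was highest in endothelium-like cells in 3 of the 4 libraries, with 439 (421 to 457), 412 (394 to 431), 441 (422 to 459.7) and 459 (438 to 482) CPM in endothelium-like cells, values that overlapped between most libraries. Removing the shared barcodes took the P1 maxillary value to 326 (295 to 358). Connective tissue-like cells had 282, 307, 357 and 304. The Alx1- and Pax3-marked cells, with 60.2 at E15.5 in the maxilla, had 852 (804 to 903) at P1 in the mandible, where they led and follicle-like cells, with 451 (408 to 497), overlapped endothelium-like cells. Stage and jaw cannot be told apart in that difference, because the class was found in those libraries only.

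Igfbp6 was highest in connective tissue-like cells in all 4 libraries. Connective tissue-like cells had 93.5 (89.2 to 98.0), 125 (121 to 129), 115 (108 to 123) and 509.6 (499 to 520.2) CPM, and tendon-like cells 26.6, 36.6 and 357 in the E15.5 maxillary, E15.5 mandibular and P1 mandibular libraries. The P1 mandibular library stood above the others in both classes. Erythroid-like cells had 0.909, 0.826, 0.629 and 8.06, so Igfbp6 was also higher in that class of the same library, and the part of free RNA in the low values of other classes was not tested.

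The comparison of mesenchyme-like with epithelium-like cells set whole compartments of each library against each other, tissue around the tooth germ included. Papilla-like cells were 1.32%, 0%, 33.1% and 37.6% of the mesenchyme-like cells, and connective tissue-like cells 29.6%, 66.4%, 10.6% and 29.5%. Of the 10 genes, 4 were past 2-fold higher in mesenchyme-like cells in all 4 libraries, Igf1, Igf2, Igfbp4 and Igfbp6, against 7.78% of all genes tested. None was past 2-fold lower in all 4, against 5.20%. Papilla-like against ameloblast-like cells at P1 had Igf1 at 25.3 against 4.54 CPM in the maxilla and 41.5 against 24.2 in the mandible. Igf2 was at 72.2 against 16.2 and 115 against 72.4, and Igfbp4 at 1143 against 85.4 and 671 against 54.2. Igfbp6 was at 6.45 against 0.773 and 13.1 against 12.7. In the mandible only Igfbp4 of these genes was past 2-fold between those dental classes. Igf1 stood at 409, 833, 155 and 405 in mesenchyme-like cells and at 38.5, 38.4, 12.2 and 28.2 in epithelium-like cells, with log2 ratios of 3.41 (3.29 to 3.53), 4.44 (4.16 to 4.73), 3.67 (3.51 to 3.83) and 3.84 (3.74 to 3.95). Igfbp4 had log2 ratios of 2.46, 2.64, 3.26 and 2.98, Igf2 of 2.33, 2.84, 2.11 and 3.25, and Igfbp6 of 2.71, 4.33, 3.16 and 4.19.

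Igfbp2 went the other way in 3 of the 4 libraries. Its log2 ratio was -0.03 (-0.08 to 0.02) in the E15.5 maxillary library and -1.82, -1.59 and -2.32 in the others, the last of which was -3.27 without the cluster led by Ptgds described below. Without the shared barcodes the maxillary log2 ratio of P1 over E15.5 for Igfbp2 went from -1.81 to 0.39 in mesenchyme-like cells. In epithelium-like cells it went from -0.25 to 0.55, so the size of the P1 maxillary value of -1.59 rests on those barcodes. Igf1r lay between -0.47 and 0.18. H19 was higher in mesenchyme-like cells by 0.80 and 0.96 at E15.5 and by 1.00 and 2.23 at P1. The median log2 ratio of the 10 genes was 1.11, 1.75, 0.97 and 1.93, and that of all genes tested was 0.04, -0.04, -0.02 and 0.04. The epithelium-like compartment of the E15.5 mandibular library was the suprabasal class alone, with 148 cells, so its values stand for that class.

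The comparison of P1 with E15.5 asked how the levels differed before and after birth. In mesenchyme-like cells Igf1 and Igfbp2 were past 2-fold lower at P1 in both jaws, 2 of the 10 genes, against 2.82% of all genes tested. The count was 0 without the shared barcodes or with cells thinned to 2000 UMIs, and 1, Igfbp2, with cells named by their own markers or with median-of-ratios scaling. None was past 2-fold higher in both, against 7.06%. Igf1 had log2 ratios of -1.40 (-1.43 to -1.37) in the maxilla and -1.04 (-1.06 to -1.02) in the mandible, and Igfbp2, at 284, 121, 81.0 and 44.9 CPM, had -1.81 (-1.85 to -1.77) and -1.43 (-1.49 to -1.37). Of the Igfbp2 UMIs of P1 mandibular mesenchyme-like cells, 48.6% came from 41 cells in a cluster led by Ptgds, a prostaglandin D synthase. This cluster had Igfbp2 at 3046 CPM. Without that cluster, singled out after its values were seen, the P1 mandibular level was 23.2 (22.1 to 24.4) and the log2 ratio between stages -2.38. Igf2 was lower by 1.51 and 0.48 on the log2 scale, H19 by 1.52 and 0.90, and Igf2r by 0.93 and 1.08. Igf1r was higher in both jaws, by 0.54 and 0.34, and Igfbp5 lay at -0.01 and -0.02. The 10 genes had a median of -1.12 and -0.59, and all genes tested had -0.00 and 0.02.

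The make-up of the mesenchyme differed between stages, and so did the ligand levels within some of its classes. Papilla-like cells, which had less Igf1 and Igf2 than the mesenchyme as a whole, were 1.32% of the mesenchyme-like cells at E15.5 in the maxilla, were not found as a class at E15.5 in the mandible, and made up 33.1% and 37.6% at P1. Connective tissue-like cells, which had the most of both, were 29.6% and 66.4% at E15.5 and 10.6% and 29.5% at P1. Within connective tissue-like cells Igf1 was not lower at P1: its log2 ratios were -0.02 (-0.06 to 0.03) and 0.21 (0.18 to 0.23). Igf2 was higher at P1 there, by 0.20 (0.17 to 0.23) and 0.82 (0.80 to 0.84), and H19 by 0.27 (0.24 to 0.30) and 0.63 (0.61 to 0.65). Without the shared barcodes the maxillary ratios in this class were 0.23 for Igf1, -0.40 for Igf2 and -0.45 for H19, so the direction of Igf2 and H19 in the maxilla rests on those barcodes. Other mesenchymal classes differed from this. Maxillary chondrocyte-like cells were lower at P1 in Igf1, at 275 against 512 CPM, and in Igf2, at 749.8 against 1235, and maxillary follicle-like cells had a log2 ratio of 0.79 (0.71 to 0.87) for Igf1 and -0.35 (-0.42 to -0.27) for Igf2. Without the shared barcodes the follicle-like Igf1 level at P1 was 281 (258 to 304) CPM, against 254 (244 to 263) at E15.5. The class also held different clusters at P1, with Igf1 at 237 in the Pappa2-led and 576 in the Bmp3-led cluster. Mandibular tendon-like cells had a log2 ratio of -0.44 (-0.58 to -0.30) for Igf1 and 0.35 (0.28 to 0.42) for Igf2, and mandibular osteoblast-like cells 1.09 (0.96 to 1.22) and 0.47 (0.40 to 0.54). Mesenchyme-like cells of no named subclass had Igf1 at 24.2 against 207 in the mandible and at 146 against 220.4 in the maxilla. How much of the difference between stages came from make-up was not tested. These shares come from dissection and cell calling, and with 1 library each they cannot be told apart from a change in the tissue.

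The shared barcodes bore on the maxillary values. Without them the log2 ratio of Igf1 in maxillary mesenchyme-like cells was -0.24, that of Igf2 -0.78 and that of H19 -0.56, and Igfbp2 changed sign to 0.39. With the P1 maxillary library limited to them, Igf1 was at -1.86 and Igfbp2 at -4.05. Mandibular values depend on the choice to drop them from that library. With the shared barcodes kept in both, the mandibular ratio was -1.23 for Igf1, -0.69 for Igf2, -1.07 for H19 and -1.59 for Igfbp2, and H19 was then past 2-fold lower in both jaws.

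In connective tissue-like cells, compared within the class as an alternative chosen after the data had been seen, Igfbp5 was past 2-fold higher at P1 in both jaws, against 2.29% of all genes tested, and Igfbp2 was past 2-fold lower in both, against 1.42%. Igfbp5 had log2 ratios of 1.28 (1.24 to 1.32) and 1.34 (1.31 to 1.37), and Igfbp2 of -1.08 (-1.19 to -0.97) and -1.19 (-1.29 to -1.09). The 2 neighbours on chromosome 1 whose promoters are printed above thus moved in opposite directions within the class. Without the shared barcodes the maxillary values were 0.35 and -0.07, so the maxillary part of each call rests on them. The mandibular values were 1.32 and -1.16 with the shared barcodes kept in that library. Igfbp6 was at 0.30 (0.18 to 0.42) in the maxilla, or -0.32 without the shared barcodes, and at 2.03 (1.98 to 2.08) in the mandible. With median-of-ratios scaling the share of higher calls among all called genes in this class went from 54.9% to 65.0% in the maxilla and from 51.7% to 66.4% in the mandible.

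**Figure D4:**
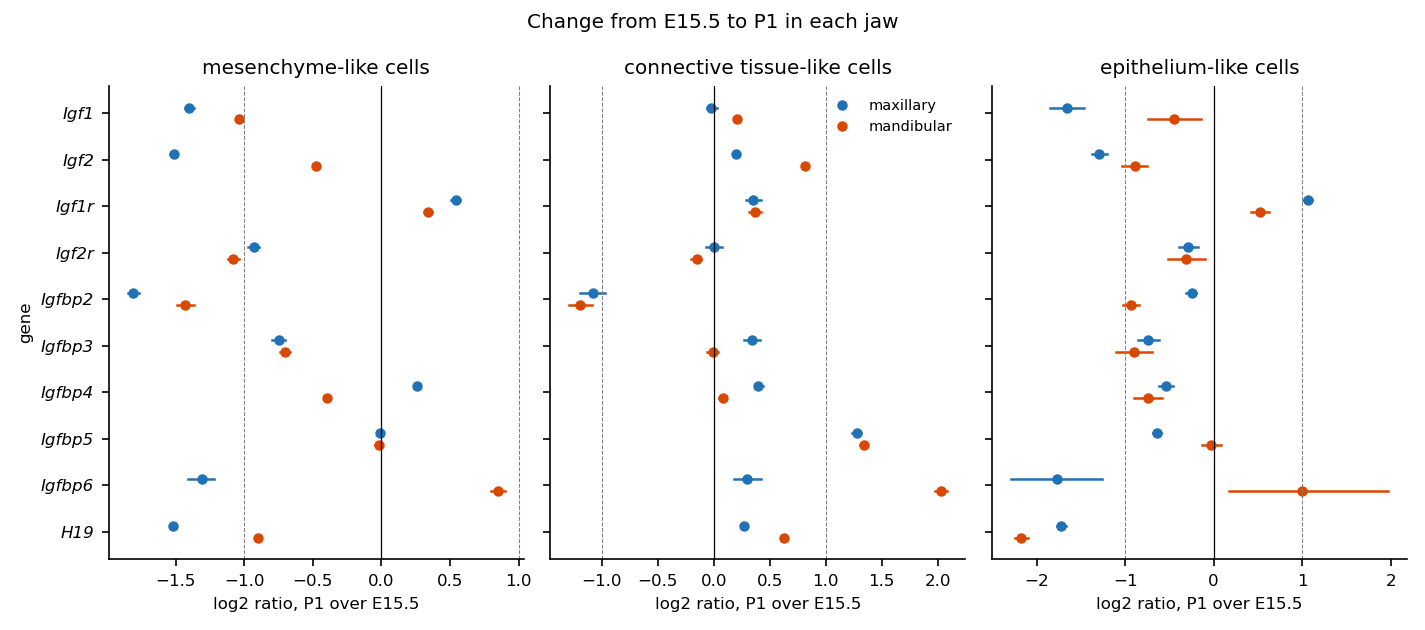
Log2 ratio of the level at P1 to that at E15.5 for each gene in mesenchyme-like, connective tissue-like and epithelium-like cells, by jaw, with 95% counting intervals as bars and dashed lines at 2-fold. Igf1, Igf2 and H19 lie left of 0 in mesenchyme-like cells and near or right of 0 in connective tissue-like cells, where Igfbp5 lies beyond 2-fold in both jaws.

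In epithelium-like cells H19 was the gene past 2-fold lower at P1 in both jaws, 1 of 10, against 3.91% of all genes tested, and none was past 2-fold higher in both, against 5.60%. It stood at 629, 783, 191 and 174 CPM, with log2 ratios of -1.72 (-1.77 to -1.67) and -2.17 (-2.24 to -2.10). Within suprabasal epithelium-like cells H19 was higher at P1, as given above. Without the shared barcodes the P1 maxillary value there was 918 (851 to 988), which overlapped the 859.5 (840.5 to 879) of E15.5. The P1 epithelium also held ameloblast-like cells, with H19 at 20.6 and 92.5. Igf1r was higher at P1 in both jaws, by 1.06 (1.01 to 1.11) and 0.52 (0.42 to 0.62), and Igf2 lower by 1.29 and 0.89. The maxillary ratios without the shared barcodes were -1.13 for H19, 0.76 for Igf1r and -0.54 for Igf2. With the shared barcodes kept in both libraries the mandibular Igf2 ratio was -1.11, past 2-fold. The mandibular ratios set the P1 epithelium against the suprabasal class alone. Within suprabasal epithelium-like cells the mandibular directions were the opposite, with Igf1r at 163 against 339, a log2 ratio of -1.06 (-1.33 to -0.80), and Igf2 at 346 against 173, a log2 ratio of 1.00 (0.79 to 1.21). In the maxilla Igf1r was higher there by 0.47 (0.34 to 0.61) and Igf2 lay at 0.04 (-0.11 to 0.18). These comparisons within a class were chosen after the data had been seen, and the P1 mandibular class held 59 cells.

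In classes that were present in all libraries the genes did not share 1 direction. Endothelium-like cells had none past 2-fold in both jaws, against 2.42% of all genes higher and 0.545% lower, with Igfbp3 at 0.01 (-0.08 to 0.09), or -0.44 without the shared barcodes, and 0.16 (0.06 to 0.25), or -0.42 with thinning, and Igf2 at -1.16 and -0.66. Muscle-like cells had none past 2-fold in both, against 2.07% higher and 0.646% lower, with Igf2 at 0.61 (0.53 to 0.70) and 1.00 (0.94 to 1.05). The clusters within that class differed in Igf2, as given above. Macrophage-like cells had none either, against 1.49% and 0.835%, with Igf2 at -1.37 and -0.68, the latter 0.13 with the shared barcodes kept, from levels that were close to the free-RNA background.

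**Figure D5:**
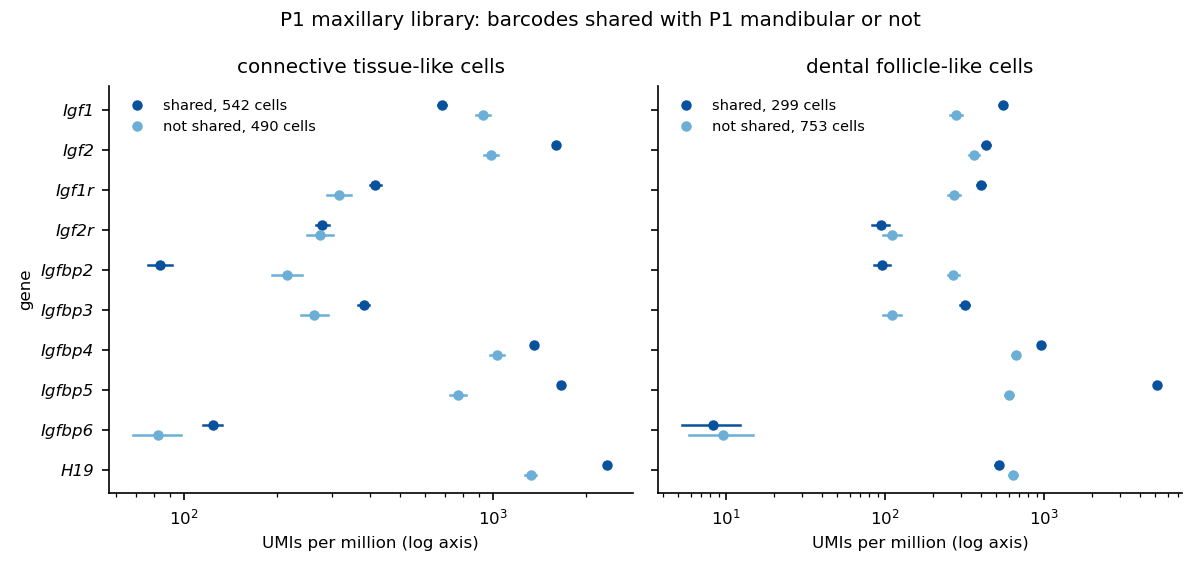
Levels in the P1 maxillary library (CPM, log axis, 95% Poisson intervals) in connective tissue-like and dental follicle-like cells, for barcodes that the P1 mandibular library shares and for those that it does not. A level under 0.5 is drawn at 0.5. In follicle-like cells Igfbp5 is at 5149 in the shared and 601 in the other barcodes.

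In the P1 maxillary library the shared barcodes differed from the others within a class. In connective tissue-like cells Igfbp5 was at 1655 (1622 to 1688) in the 542 shared and 771 (727 to 817) in the 490 other cells, Igfbp2 at 83.7 and 215, and Igf1 at 684 and 926. In follicle-like cells Igfbp5 was at 5149 in 299 shared and 601 in 753 other cells. The make-up differed too, since 71.9% of the shared and 43.6% of the other follicle-like cells were in the Bmp3-led cluster. Within that cluster Igfbp5 was at 6834 (6723 to 6946) in the shared and 1007 (940.5 to 1077) in the other cells, and within the Pappa2-led cluster at 640.1 (586 to 698) and 326 (295 to 359). The median depths were 10263 and 2876 UMIs in connective tissue-like cells.

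The comparison of jaws set mesenchyme-like cells of the maxillary and mandibular dissections against each other at the same stage. Their make-up differed between jaws. Connective tissue-like cells, highest in Igf1 and Igfbp6, were 29.6% of them in the maxilla and 66.4% in the mandible at E15.5, and 10.6% and 29.5% at P1. How much of the jaw differences came from make-up was not tested. In mesenchyme-like cells Igf1 and Igfbp6 were past 2-fold lower in the maxilla at both stages, 2 of the 10 genes, against 1.37% of all genes tested, and none was past 2-fold higher at both, against 1.47%. Igf1 had log2 ratios of maxilla over mandible of -1.03 (-1.05 to -1.0) at E15.5 and -1.38 (-1.41 to -1.35) at P1. Igfbp6, at 40.2 against 88.4 and at 16.2 against 159.6 CPM, had -1.14 (-1.21 to -1.07) and -3.30 (-3.39 to -3.22). Igfbp2 was higher in the maxilla at both stages, by 1.23 (1.19 to 1.28) and 0.85 (0.79 to 0.91). Without the 41 mandibular cells of the Ptgds cluster the P1 value was 1.80, and Igfbp2 was then past 2-fold at both stages, so that the count was 3.

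Within connective tissue-like cells no gene of the set was past 2-fold at both stages, against 1.80% of all genes higher and 1.75% lower. Igf1 was at -0.59 (-0.62 to -0.56) and -0.81 (-0.86 to -0.77), Igfbp6 at -0.42 (-0.50 to -0.33) and -2.14 (-2.24 to -2.04), and Igfbp2 at 0.84 (0.78 to 0.90) and 0.95 (0.81 to 1.08), each with the same sign as in the whole mesenchyme. In the P1 maxillary barcodes that were not shared, this class had Igfbp2 at 215 (192 to 239.9) CPM, so its P1 ratio was larger without the shared barcodes. Without the shared barcodes the P1 ratio in mesenchyme-like cells was -0.22 for Igf1, -3.43 for Igfbp6 and 3.05 for Igfbp2, so the P1 difference in Igfbp6 is as large without them and that in Igf1 is not. With the P1 maxillary library limited to them, Igfbp2 was at -1.39, the opposite sign.

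The genes whose pattern was most like each member were found by Pearson's r of log2(CPM + 1) over 68 combinations of class and library, among 9054 genes. The combinations share libraries and base composition, and r is a description. H19 was the gene most like Igf2 and Igf2 the gene most like H19, with r = 0.91, followed for both by Plagl1 (0.82 and 0.84), an imprinted zinc finger gene, and C430049B03Rik (0.83 and 0.82). Igfbp4 was the gene most like Igf1, with r = 0.82, followed by Fap and Angptl1 at 0.81. Airn, at 0.97, was the gene most like Igf2r, with Gm20721 at 0.88 and Gnas at 0.87, and the Airn value shares the strand uncertainty above. Igf1r was closest to Zfp280d, Arid2 and Ptbp2, all at 0.95.

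Among the binding proteins, Igfbp2 was closest to Tom1l1 (0.77), Ly6h and Crabp2 (both 0.75), Igfbp3 to Ehd2 (0.80), Cavin1 and Arhgap28 (both 0.77), Igfbp4 to Tnfsf12 (0.86), Il11ra1 (0.85) and Shc1 (0.84), Igfbp5 to Zfp503 (0.78), Gpc3 (0.76) and Rab30 (0.73), and Igfbp6 to Mfap5 (0.79), Clec3b (0.77) and Tnxb (0.74). Cavin1 and Ehd2 encode proteins of caveolae, and Mfap5 and Clec3b were also used to name connective tissue-like cells. Between members, r was 0.78 for Igf2 with Igf2r, 0.75 for Igf2 with Igfbp3, 0.12 for Igf1 with Igfbp2 and 0.20 for Igf1 with Igf1r.

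Other genes of the pathway were taken from lists. Of 11 other binding proteins and regulators, 10 were tested between mesenchyme and epithelium. Igfbp7 and Pappa2, a protease that cuts IGFBP5 and IGFBP3, were past 2-fold higher in mesenchyme-like cells in all 4 libraries, 2 of 10 against 7.78% of all genes, and Igfbpl1 was past 2-fold lower, 1 of 10 against 5.20%, with 0.377, 0.0439, 2.70 and 3.94 CPM against 10.2, 29.6, 184 and 215 in epithelium-like cells. The list's median log2 ratio was 0.80, 0.98, 0.65 and 1.18. Between stages in mesenchyme-like cells, Pappa2 stood at 136 and 56.6 at E15.5 and at 27.4 and 6.25 at P1, a log2 ratio of -2.31 and -3.18. Pappa, which encodes the related protease that cuts IGFBP4, went the other way, from 25.4 and 18.5 to 98.4 and 80.1, a log2 ratio of 1.96 (1.88 to 2.03) and 2.11 (2.01 to 2.22). Igfbpl1 was also past 2-fold higher at P1, from at most 0.377 to 2.70 and 3.94. The 2 of 10 past 2-fold higher stood against 7.06% of all genes, and the 1 lower, Pappa2, against 2.82%. In the maxilla the ratios without the shared barcodes were -0.74 for Pappa2, 0.53 for Pappa and 0.88 for Igfbpl1, and none of the 3 was then past 2-fold in both jaws. Pappa2 was past 2-fold higher in the maxilla at both stages, with log2 ratios of 1.26 and 2.13, the latter 3.69 without the shared barcodes, 1 of 10 against 1.47% of all genes. In epithelium-like cells 1 of 9 was past 2-fold higher at P1, Igfbpl1, against 5.60%, and 1 lower, Htra1, a secreted serine protease, against 3.91%. With those barcodes removed the maxillary ratio of Igfbpl1 was 0.75 and that of Htra1 -1.91.

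Of the 15 imprinted growth genes, 11 were past 2-fold higher in mesenchyme-like than in epithelium-like cells in all 4 libraries, against 7.78% of all genes, and none was lower, against 5.20%, with list medians of 1.59, 2.15, 2.22 and 2.46. Cdkn1c, a cell cycle inhibitor, had 2937, 4128, 1074 and 1173 CPM in mesenchyme-like cells and 732, 552, 203 and 157 in epithelium-like cells. Dlk1, a membrane protein of the Notch ligand family, had 1139.6, 2574, 349 and 1221 against 164, 201, 38.3 and 95.8. Between stages, 6 of the 15 were past 2-fold lower at P1 in mesenchyme-like cells in both jaws, against 2.82% of all genes, among them Cdkn1c, with log2 ratios of -1.45 and -1.82, Mest, with -1.67 and -1.39, and Dlk1, with -1.71 and -1.08. In epithelium-like cells 12 of the 15 were, against 3.91%. Without the shared barcodes the count was 0 of 15 in mesenchyme-like cells, where 0.669% of all genes were then past 2-fold lower in both jaws, with maxillary ratios of -0.33 for Cdkn1c, -0.66 for Mest and -0.79 for Dlk1, and 7 of 15 in epithelium-like cells, against 2.31%. The list medians were -0.96 and -1.12 in mesenchyme-like cells, -1.57 and -1.29 in epithelium-like cells and -0.11 and -0.16 in connective tissue-like cells, where Phlda2 was the gene past 2-fold lower in both jaws. In the maxilla Phlda2 was at -0.45 in that class without the shared barcodes. Dlk1 and Peg10 were past 2-fold lower in the maxilla at both stages, but at P1 only with the shared barcodes, being at -0.88 and -0.62 without them. H19 and Igf2 in mesenchyme-like cells thus stood beside a list of imprinted genes that was also lower at P1, and within mandibular connective tissue-like cells both were above their E15.5 level.

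Among 19 genes of the PI3K and AKT branch, which carries the signal of Igf1r inside the cell, 1 was past 2-fold lower in mesenchyme-like cells in all 4 libraries, close to the 5.20% of all genes that were. This was Pik3cb, with 3.79, 4.98, 4.60 and 3.27 CPM against 17.6, 13.2, 24.8 and 21.2. Foxo1, a transcription factor that AKT keeps out of the nucleus, was past 2-fold higher at P1 in both jaws in mesenchyme-like cells, from 35.4 and 27.0 to 207 and 147, in epithelium-like cells, from 47.6 and 72.1 to 208 and 236, and in connective tissue-like cells, with log2 ratios of 1.04 and 1.57. It was the 1 of 19 past 2-fold higher in mesenchyme-like cells, against 7.06% of all genes, and in connective tissue-like cells, against 2.29%. The maxillary ratio of Foxo1 without the shared barcodes was 0.08 in mesenchyme-like, 0.20 in connective tissue-like and 1.36 in epithelium-like cells. Pik3r1, a regulatory subunit, was past 2-fold higher at P1 in epithelium-like cells, with 286 and 296 against 107 and 124, which made 2 of 19 there, against 5.60%, and its maxillary ratio was 0.35 without the shared barcodes. These shares are close to those of all genes or rest on 1 gene. The other genes of the branch were not past 2-fold in both jaws in these comparisons, and the list's median lay between -0.03 and 0.19 in the stage comparisons of mesenchyme-like, epithelium-like and connective tissue-like cells.

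Of 10 genes of the insulin receptor family and its adaptors, 8 were tested between mesenchyme and epithelium, and Shc1 and Grb10 were past 2-fold higher in mesenchyme-like cells in all 4 libraries, against 7.78% of all genes. Grb10, an imprinted adaptor that restrains signalling by these receptors, had 711, 823, 444 and 397 CPM there and was past 2-fold lower at P1 in epithelium-like cells, by 1.12 and 1.57, 1 of 8 against 3.91%. Its maxillary ratio there was 0.47 without the shared barcodes, the opposite sign. Of 8 genes for IGF2 mRNA-binding proteins and their regulators, 7 were tested between mesenchyme and epithelium, and Hmga1 was past 2-fold higher in epithelium-like cells in all 4 libraries, against 5.20% of all genes. Igf2bp1 was past 2-fold lower at P1 in mesenchyme-like cells, from 28.4 and 45.7 to 10.7 and 11.5, and in epithelium-like cells, from 53.7 and 37.3 to 7.36 and 3.69, and Igf2bp3 was so in mesenchyme-like cells, from 84.3 and 98.8 to 29.0 and 36.3. These were 2 of 7 in mesenchyme-like cells, against 2.82% of all genes, and 1 of 6 in epithelium-like cells, against 3.91%. Maxillary ratios in mesenchyme-like cells without the shared barcodes were 0.13 for Igf2bp1 and -0.10 for Igf2bp3, so neither was then past 2-fold in both jaws, and that of Igf2bp1 in epithelium-like cells was -1.80. Of the 5 genes of the growth hormone axis none was past 2-fold in the same direction throughout any of these comparisons.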

How the data were processed

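Tooth organs were dissociated and sequenced as Chromium 3′ libraries. The authors deposited UMI counts per gene and barcode for each library, whole numbers without normalization, made with Cell Ranger 7.0.1 on the mm10 build. The barcodes are those of its default cell calling. Mitochondrial, gene number and doublet filters were not applied here in the main analysis. Scrublet's automatic threshold marked 2, 0, 0 and 0 barcodes and so did not work on these libraries.

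Each library was clustered on its own (scanpy 1.11.5, leidenalg 0.10.2): counts per 10000, log scale, 2000 variable genes, 40 components, 15 neighbours, Leiden resolution 1.0. The 10 genes and the 67 other listed genes, mitochondrial genes and ribosomal protein genes were left out of clustering. Of 123 clusters, 115 took the class with the highest marker score, at least 0.45 with 3 detected markers (0.55 for subclasses), and 8 stayed unnamed. These thresholds were set after the clusters, and levels of some of the genes, had been seen. The genes and lists were chosen with earlier results of these data known. Leukocyte-like cells were not compared between stages, because a cluster of theirs was led by osteoclast markers.

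Counts were summed per class and library and expressed as CPM. Levels have exact Poisson intervals and ratios exact binomial intervals. A gene was tested in a comparison with at least 20 UMIs over both sums. Genes named are the 10 members, the 3 most like each by Pearson's r, and from each list up to 4 past 2-fold in the same direction in every library. The code was checked on simulated counts. The alternatives were mitochondrial, gene number and doublet filters, a minimum of 2000 UMIs, shared barcodes removed or kept, naming of each cell by its own markers, Leiden resolution 2.0, thinning to 2000 UMIs, median-of-ratios scaling, scaling without mitochondrial and haemoglobin genes, and no minimum of UMIs. The P1 maxillary library limited to shared barcodes, the P1 mandibular mesenchyme without its cluster led by Ptgds, and comparisons within a class, with counts for classes of at least 100 cells in every library, were added after the data had been seen.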

Additional observations from a re-analysis of the deposited data

Results flagged for a closer look

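For 7 combinations of gene and class the change from E15.5 to P1 had opposite signs in the 2 jaws, with counting intervals that excluded 0. The difference between jaws was not tested, since each jaw has 1 library per stage. All values are log2 ratios of P1 over E15.5, maxilla first. Igfbp6 differed in mesenchyme-like cells (-1.31 and 0.85), in epithelium-like cells (-1.77 and 1.00) and in endothelium-like cells (-2.06 and 2.38). With the filters both epithelial values changed sign, to 0.13 and -0.75, and with thinning both were negative, at -0.52 and -0.82. In endothelium-like cells the levels were between 1.03 and 13.2 CPM, and erythroid-like cells of the P1 mandibular library had 8.06, so these values lie close to the free-RNA background. In connective tissue-like cells, where Igfbp6 is highest, both jaws had the same sign, though the maxillary value was -0.32 without the shared barcodes.

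Igfbp4 was at 0.26 and -0.40 in mesenchyme-like cells and at -0.36 and 0.45 in muscle-like cells, where the first was 1.08 with cells named by their own markers and the second -0.08 with thinning. Igf1 was at -1.19 and 0.70 in muscle-like cells, at levels of 20.6 to 54.5 CPM, the first being 0.81 with cells named by their own markers. Igfbp5 was at -0.70 and 2.93 in macrophage-like cells, where the P1 mandibular level of 119.5 CPM came with Igfbp5 in 4.58% of thinned cells, against 5.10% at E15.5.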

How the results depend on the processing

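Each stage and jaw has 1 library without replicate numbers, so there was no replicate to leave out and no fit with a replicate term was made. Of 10 genes, 4 were past 2-fold between mesenchyme and epithelium in the main analysis and under 11 of the 12 alternatives, and 5 with median-of-ratios scaling, which added Igfbp3. The count between jaws was 2 or 3 throughout, with Igf1 replaced by Igfbp2 when shared barcodes were removed and with thinning, and Igfbp2 added with the filters, with shared barcodes kept in both libraries and without the Ptgds cluster. The count of 2 between stages in mesenchyme-like cells became 0 with shared barcodes removed or with thinning, and 1 with cells named by their own markers or with median-of-ratios scaling, and it was 2 or 3 under the others. The count of 1 in epithelium-like cells became 2 with the mitochondrial, gene number and doublet filters, with shared barcodes kept in both libraries, with cells named by their own markers and with thinning, and H19 was among the genes counted in each case. The class with the highest level was the same in 29 to 40 of 40 combinations of gene and library.

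Of 120 log2 ratios between stages, 46 changed sign under at least 1 of the 12 alternatives, 27 in the maxilla and 19 in the mandible. Without the shared barcodes 15 did, all in the maxilla, among them Igf2, H19 and Igfbp6 in connective tissue-like cells (-0.40, -0.45 and -0.32), and with the shared barcodes kept in both libraries 10 did, all in the mandible. Igfbp6 in mandibular epithelium-like cells, just under 2-fold, was at -0.75 with the filters and -0.82 with thinning. The 5 ratios past 2-fold that changed sign were in the maxilla. With the filters, Igfbp6 was at 0.13 in epithelium-like cells and H19 in macrophage-like cells was just above 0, at 0.00 when rounded. Igfbp6 in muscle-like cells was at 0.28 with a minimum of 2000 UMIs, 1.30 with shared barcodes removed and 2.34 with cells named by their own markers, and Igf1 there was at 0.81 with the last of these. Igfbp2 in mesenchyme-like cells was at 0.39 with shared barcodes removed. Median-of-ratios scaling moved the median of all genes by -0.07 to 0.23 on the log2 scale, over 0.1 in 7 of 20 comparisons. Beside connective tissue-like cells, it took the share of higher calls from 53.9% to 65.5% in maxillary macrophage-like cells and, in muscle-like cells, from 45.6% to 55.9% in the maxilla and from 67.9% to 82.1% in the mandible. The causes were not tested. The P1 maxillary cells without shared barcodes had a median of 2545 UMIs, which limits the precision of their shares.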

Other observations

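Of the 386 unnamed cells of the P1 maxillary library, 366 formed a cluster led by Pomc, a pituitary hormone precursor. This cluster had Igf1r at 399.8 (365 to 437), Igfbp2 at 191 (167 to 217), Igfbp5 at 197 (173 to 224), Igf2 at 66.1 (52.4 to 82.3) and Igf1 at 29.7 (20.8 to 41.2) CPM. The other 20 cells, in a cluster led by Vip, had Igf1r at 89.8 (55.6 to 137). The neuron-like cells of that library, 795 cells, had Igf1r at 487 (462 to 513) and Igfbp2 at 149 (135 to 163), and Igf1 at 27.3 (21.6 to 33.9), against 17.3 in erythroid-like cells.

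The unnamed cells of the E15.5 mandibular library were 435 cells in 3 clusters. The 286 cells led by Spp1, with a median of 1550 UMIs, had Igf2 at 1383 (1291 to 1478) and H19 at 1800.3 (1696 to 1909) CPM. The 123 cells led by Hist1h1b had 538 (511 to 566) and 706 (675 to 738), and the 26 cells led by Cma1, a mast cell protease, 94.0 (68.3 to 126) and 214 (174 to 259.8). The cluster of 41 cells led by Ptgds held 48.6% of the Igfbp2 UMIs of the P1 mandibular mesenchyme-like cells. It also had Igf2 at 4217 CPM, above every class, and 3.41% of the Igf2 UMIs of those mesenchyme-like cells.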
